A study of Mus musculus with 20 samples.

Results

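The genes described here encode the cytosolic factors that start and extend a polypeptide on the ribosome, together with the enzymes that act on them. They are the 62 protein-coding genes whose mouse symbols begin with Eif or Eef and that had at least 10 counts in at least 3 of 20 libraries, out of 25317 gene identifiers counted in all. The symbols gave 72 candidates. Of these, 5 were annotated pseudogenes, Eef1e1, whose product belongs to the aminoacyl-tRNA synthetase complex, was left out by name, and 4 coding genes were under the minimum: Eif4ebp2, Eif4ebp3, Eif2ak2 and Eef1akmt3.

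The libraries came from the cortex of C57BL/6 mice aged 3 months that carried a heterozygous Foxp2 deletion or were wild type. From each animal an IP library held RNA that an anti-GFP serum pulled down with tagged ribosomes (bacTRAP, translating ribosome affinity purification), and an Input library held RNA of the same lysate taken just before the pull-down. The dissection removed hippocampus, basal ganglia, diencephalon and a rostral tip. The groups were heterozygous IP (n = 3), wild-type IP (n = 5), heterozygous Input (n = 3) and wild-type Input (n = 5), with 1 animal per library pair. The labels describe the deletion as cortical and give neither the driver of that deletion nor the line that carries the tagged ribosome. A further 4 heterozygous Input libraries, 2 each from 2 animals with no IP library here, entered one alternative fit only.

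Library totals ran between 2689544 and 5754169 counts. Mitochondrially encoded RNA took 0.0616% to 0.127% of counts in the IP libraries but 0.398% in that of animal het729, and 0.928% to 1.86% in the Input libraries of the 8 animals. Levels are given as CPM, which are counts scaled to a common library size with TMM. Foxp2 averaged 46.5 ± 12.9 CPM in heterozygous IP and 69.5 ± 21.2 CPM in wild-type IP, and 27.8 ± 3.52 CPM in heterozygous Input and 47.0 ± 10.8 CPM in wild-type Input (SD, n = 3 and 5; exact permutation tests, two-sided, p = 0.179 in IP and 0.0536 in Input, where 0.0179 is the smallest p that 3 against 5 allow). All 4 glutamatergic neuron markers were called higher in IP than in Input in both genotypes, and oligodendrocyte markers summed to 475 to 846 CPM in heterozygous IP and 550 to 787 CPM in wild-type IP, against 2290 to 2980 CPM in heterozygous Input and 2400 to 3070 CPM in wild-type Input. All 3 inhibitory neuron, 3 striatum and 2 hippocampus markers were called lower in IP in both genotypes. In each genotype 3 of 4 astrocyte markers were called lower and 1 higher, and 3 of 4 oligodendrocyte markers lower. Of 3 microglia markers, 2 were called lower in heterozygous and 1 in wild-type animals. Of the 2 endothelium markers tested, 1 was called lower in each genotype. None of the markers of 8 cell types or regions was at 0 in a whole group. In each comparison of IP with Input, a change in a transcript's ribosome loading, a different mixture of cell types, and fewer cells of a type as against less RNA per cell cannot be told apart.

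Initiation begins when eIF2 brings the initiator tRNA to the small ribosomal subunit and eIF3 holds the complex open, while eIF1, eIF1A and eIF5 control the choice of the start codon. The eIF4 factors recognise the cap and unwind the leader of the mRNA, and eIF4E is held back by the 4E-binding proteins under control of mTOR. Elongation is carried by eEF1A, which delivers aminoacyl-tRNA, its exchange factor eEF1B, and eEF2, which moves the ribosome along and is inhibited by eEF2 kinase. In neurons, initiation and elongation are both regulated by activity, and phosphorylation of the eIF2 alpha subunit and of eEF2 are known control points of plasticity.

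Some mRNAs of this machinery are known from cell culture to begin with a terminal oligopyrimidine (TOP) tract, a run of C and T letters through which mTOR and LARP1 control their loading on ribosomes. The windows below show 10 bases before and 20 bases from the RefSeq start (GRCm38.p6), 5′ to 3′ on the coding strand, with runs of 8 or more C or T letters in capitals. They were chosen to set members with such a run beside members with large differences between fractions and none.
Eef1a1 (chr9:78481705-78481734, minus strand): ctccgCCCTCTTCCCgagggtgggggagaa
Eif3f (chr7:108934405-108934434, plus strand): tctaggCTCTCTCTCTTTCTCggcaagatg
Eif3l (chr15:79075213-79075242, plus strand): gagTTCTTCTTCCgCTCTCTCCCacgggct
Eif2b5 (chr16:20498807-20498836, plus strand): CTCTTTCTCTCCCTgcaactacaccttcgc
Eif2s3x (chrX:94212632-94212661, minus strand): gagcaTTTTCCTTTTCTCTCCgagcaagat
Eif4h (chr5:134639390-134639419, minus strand): acttgcgatcaggcagcgcggcggacagcc
Eif3a (chr19:60790674-60790703, minus strand): ctcgggcggcggcgctgccgccgcgaggga
Eif2a (chr3:58525811-58525840, plus strand): gactccgcccgctccggagagggagggcga

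Of the 62 members, 49 had an entry in the promoter table, and 10 of these (20.4%) held such a run in at least 1 window, searched on the coding strand only. Among all 27025 genes of the table, 13.0% did. The windows of Eif4h, Eif3a and Eif2a held none. Of 9 members known as TOP mRNAs, 5 had an entry, and Eef1a1 and Eif3f held a run while the other 3 (Eef1b2, Eef2 and Eif4b) held none within the window. The run of Eef1a1 lay on both sides of the annotated start, and whether it is the TOP tract was not tested. The window of Eef2 ended in C and T letters, so a run that went on past its end would not be seen. A run is a description of these letters at an annotated start and not a measured start of the mRNA.

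Between IP and Input the members split into a group that was higher in the ribosome pull-down and a group of much the same size that was lower, in both genotypes. In heterozygous animals 19 members (30.6%) were called higher in IP, where 22.6% of all genes tested were, and 21 (33.9%) lower, where 22.1% were. In wild-type animals 24 (38.7%) were called higher, where 28.5% of all genes were, and 20 (32.3%) lower, where 25.6% were. A call is an adjusted p under 0.05 in edgeR's quasi-likelihood test with the animal as a block, Benjamini-Hochberg adjusted over 14797 genes. The median log2 fold change over the 62 members was 0.0052 in heterozygous and 0.067 in wild-type animals, where over all genes tested it was 0.040 and 0.035. The wild-type median of the members was 0.036 without wt736 and 0.043 without wtBT14, where that of all genes was 0.029 and 0.028, and the heterozygous one was -0.086 without het729, -0.064 without hetBT13 and 0.060 without het786. Of the members called higher, 19 were called in both genotypes, which is 100% of the heterozygous and 79.2% of the wild-type calls. Of those called lower, 17 were shared, 81.0% of the heterozygous and 85.0% of the wild-type calls. The same overlap over all genes tested was not counted, so these shares are not shown to be particular to the members. No member was called in opposite directions, and 14 were called in neither genotype. Since no member passed the interaction test given at the end, a call in 1 genotype alone is not shown to differ between them. The heterozygous count of members called higher was 12 without het786, and without het729 it was 15, beside 19 called lower. With DESeq2, 14 members were called higher and 20 lower in heterozygous animals, where 2569 and 3050 of 14797 genes were. In wild type DESeq2 called 21 higher and 20 lower, where 3459 and 3555 genes were.

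**Figure D1:**
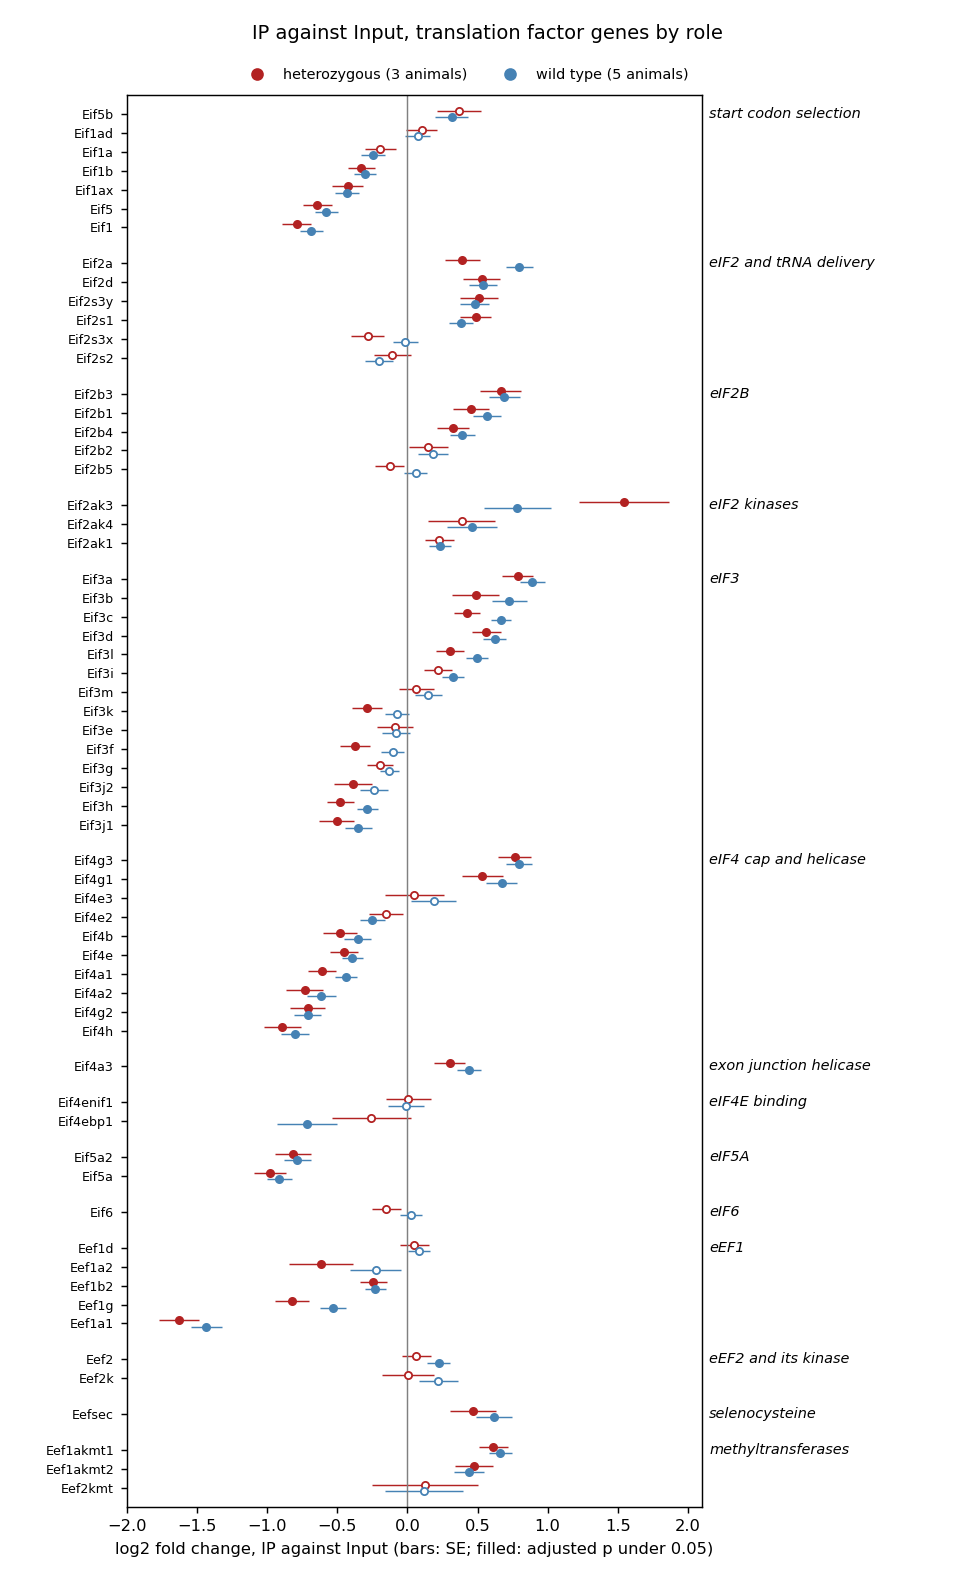
Log2 fold change of IP against Input (horizontal axis) for each of the 62 members, grouped by role, with heterozygous animals (red, 3 animals) drawn above wild type (blue, 5 animals); bars are SE and filled points have an adjusted p under 0.05. Eef1a1 lies farthest to the left in both genotypes, and eIF2B and eIF2 kinase genes have no filled point left of 0.

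Among the 7 members grouped here under start codon selection, most of the called genes were lower in IP. The group held Eif1, Eif1b, Eif1a, Eif1ax, Eif1ad, Eif5 and Eif5b, and not each of them is known to select the start codon. Of the 7, 4 were called lower in heterozygous animals and 5 in wild type, and Eif5b was called higher in wild type. Eif1, which keeps the scanning ribosome from stopping at poor start sites, had 209.8, 158 and 162 CPM in IP of heterozygous animals het729, het786 and hetBT13, against 326, 308 and 275 CPM in their Input. In the wild-type animals wt734, wt736, wt785, wtBT13 and wtBT14 it had 174, 171, 158, 148 and 129 CPM in IP, against 263, 269, 266, 203 and 259.7 CPM in Input. The fractions did not overlap in either genotype, and the log2 fold change was -0.79 ± 0.11 (SE) in heterozygous animals (edgeR, adjusted p = 4.36e-06) and -0.69 ± 0.082 in wild type (edgeR, adjusted p = 4.65e-07). Eif5, which triggers GTP hydrolysis by eIF2, fell by 0.64 on the log2 scale in heterozygous and by 0.58 in wild-type animals. Eif5b, a large GTPase that joins the subunits, had a log2 fold change of 0.37 in heterozygous animals, not called, and 0.32 in wild type.

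Of the 6 genes for eIF2 subunits and for factors that deliver tRNA in other ways, the same number, 4, were called higher in each genotype and 0 lower. Eif2s1, which encodes the alpha subunit that stress kinases phosphorylate, had 87.8, 98.5 and 99.8 CPM in heterozygous IP, against 62.9, 81.3 and 59.9 CPM in heterozygous Input. Wild-type IP held 88.1, 97.1, 90.1, 108 and 118 CPM, against 69.9, 73.5, 77.0, 85.7 and 78.9 CPM in wild-type Input. It was higher in IP in each of the 8 animals, with no overlap of the fractions within a genotype, by 0.49 ± 0.11 in heterozygous (SE; edgeR, adjusted p = 0.00121) and 0.38 ± 0.084 in wild-type animals (edgeR, adjusted p = 6.06e-04) on the log2 scale.

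Eif2a, which encodes an alternative initiator tRNA factor and is no eIF2 subunit, had 63.2, 70.5 and 73.8 CPM in heterozygous IP, against 49.3, 53.5 and 54.6 CPM in heterozygous Input. In wild-type IP it had 67.7, 75.9, 69.6, 83.0 and 87.3 CPM, against 46.8, 45.6, 39.9, 36.7 and 52.3 CPM in wild-type Input. All 8 animals had more in IP, with a log2 fold change of 0.39 ± 0.12 in heterozygous (SE; edgeR, adjusted p = 0.0123) and 0.80 ± 0.10 in wild-type animals (edgeR, adjusted p = 4.38e-07). Eif2d, a factor of reinitiation and recycling, rose by 0.53 in heterozygous and 0.54 in wild-type animals. The beta subunit gene Eif2s2 was called in neither genotype, at -0.11 in heterozygous and -0.20 in wild-type animals. The X-linked gamma subunit gene Eif2s3x was not called either, at -0.28 in heterozygous (edgeR, adjusted p = 0.0514; higher in IP in 0 of 3 animals) and -0.015 in wild-type animals (edgeR, adjusted p = 0.9; 2 of 5). Of the 4 eIF2 subunit genes, Eif2s1 and Eif2s3y were thus the ones called higher.

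Of the 5 subunits of eIF2B, the exchange factor that reloads eIF2 with GTP, Eif2b1, Eif2b3 and Eif2b4 were called higher in IP in both genotypes and none lower. Eif2b3 had 48.8, 60.1 and 74.0 CPM in heterozygous IP, against 38.4, 36.3 and 38.2 CPM in heterozygous Input. Wild-type values were 55.5, 54.7, 69.2, 62.0 and 72.8 CPM in IP, against 35.5, 40.3, 40.8, 43.4 and 34.2 CPM in Input. The fractions did not overlap, and the log2 fold changes were 0.67 ± 0.15 in heterozygous (SE; edgeR, adjusted p = 8.14e-04) and 0.69 ± 0.11 in wild-type animals (edgeR, adjusted p = 1.84e-05). Eif2b5, which encodes the catalytic subunit and whose window with a pyrimidine run is printed above, had -0.13 in heterozygous and 0.061 in wild-type animals, called in neither.

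Of the 3 eIF2 kinase genes that reached the minimum, Eif2ak3 (PERK, the kinase of the endoplasmic reticulum) was called higher in both genotypes, while Eif2ak1 and Eif2ak4 were called higher in wild type. Eif2ak3 had 10.4, 12.9 and 14.6 CPM in heterozygous IP, against 4.96, 1.95 and 6.03 CPM in heterozygous Input. Wild-type IP had 9.84, 10.6, 8.13, 9.74 and 9.17 CPM, against 8.07, 3.18, 7.18, 5.85 and 3.80 CPM in wild-type Input. These are low levels, with 6 to 19 counts per library in heterozygous Input and 12 to 30 in wild-type Input. The log2 fold change was 1.54 ± 0.32 in heterozygous (SE; edgeR, adjusted p = 5.67e-04) and 0.78 ± 0.24 in wild-type animals (edgeR, adjusted p = 0.0086). The wild-type call was lost without animal wt736, at a log2 fold change of 0.57 (edgeR, adjusted p = 0.0636). Eif2ak2, the kinase that responds to double-stranded RNA, stayed at or under 11 counts in every library.

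The 14 genes of eIF3, the largest initiation factor, did not move as one complex. In heterozygous animals 5 were called higher and 5 lower, and in wild-type animals 6 higher and 2 lower. The genes called higher in both were Eif3a, Eif3b, Eif3c, Eif3d and Eif3l, and those called lower in both were Eif3h and Eif3j1. Eif3j1 and Eif3j2 were both among the 5 called lower in heterozygous animals. Of their annotated 50-base words, 50.9% and 91.8% also occur in transcripts of another gene, which makes their counts uncertain. Eif3a, the scaffold subunit, had 138, 184 and 188 CPM in heterozygous IP, against 82.7, 105 and 106 CPM in heterozygous Input. In wild-type IP it had 189.7, 135, 195, 164 and 185 CPM, against 95.7, 101, 94.0, 87.7 and 88.4 CPM in wild-type Input. Every IP library lay above every Input library, and the log2 fold change was 0.79 ± 0.11 in heterozygous (SE; edgeR, adjusted p = 9.11e-06) and 0.89 ± 0.086 in wild-type animals (edgeR, adjusted p = 2.38e-08).

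Eif3b and Eif3d, a scaffold subunit and a subunit that can bind the cap, rose by 0.49 and 0.56 on the log2 scale in heterozygous and by 0.73 and 0.62 in wild-type animals (edgeR, adjusted p = 0.0211 and 1.67e-04 in heterozygous, 4.87e-05 and 1.17e-06 in wild type). Exons of Eif3d overlap those of another gene over 43.3% of their length, and the library kit does not mark strand, so its counts are uncertain. Eif3h, a subunit outside the core, had 143, 122 and 129.8 CPM in heterozygous IP, against 179, 194 and 176 CPM in heterozygous Input. The wild-type values were 138, 130.5, 140.3, 134 and 120.1 CPM in IP, against 173, 174, 169.5, 137 and 157 CPM in Input. The fractions did not overlap in heterozygous animals and overlapped in wild type. The difference was smaller than that of Eif3a and went the other way, at -0.48 ± 0.10 in heterozygous (SE; edgeR, adjusted p = 5.20e-04) and -0.28 ± 0.077 in wild-type animals (edgeR, adjusted p = 0.00344). Eif3f, whose printed window holds a pyrimidine run, was called lower in heterozygous animals at -0.37 and not in wild type at -0.10.

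Among the eIF4 genes, those of a pair of scaffolds were higher in IP and the other called genes were lower. Of 10 members, 2 were called higher in each genotype, Eif4g1 and Eif4g3, while 6 were called lower in heterozygous and 7 in wild-type animals. Eif4g3, a scaffold that joins the cap to the ribosome, had 97.1, 111 and 113 CPM in heterozygous IP, against 54.3, 68.1 and 66.3 CPM in heterozygous Input. Wild-type IP had 125, 101, 119, 98.5 and 84.7 CPM, against 55.1, 64.2, 65.2, 61.2 and 58.0 CPM in wild-type Input. The fractions did not overlap, with log2 fold changes of 0.77 ± 0.12 in heterozygous (SE; edgeR, adjusted p = 2.34e-05) and 0.80 ± 0.091 in wild-type animals (edgeR, adjusted p = 2.37e-07).

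Its paralog Eif4g1 had 68.3, 90.8 and 106 CPM in heterozygous IP, against 53.0, 65.8 and 61.1 CPM in heterozygous Input. In wild type it had 118, 95.6, 116, 84.1 and 71.0 CPM in IP, against 56.5, 65.8, 58.0, 56.2 and 64.6 CPM in Input. The fractions did not overlap within a genotype. The log2 fold change was 0.54 ± 0.15 in heterozygous (SE; edgeR, adjusted p = 0.00513) and 0.67 ± 0.11 in wild-type animals (edgeR, adjusted p = 3.26e-05), and the heterozygous call was lost without hetBT13 (edgeR, adjusted p = 0.0742). The third scaffold gene of the family, Eif4g2 (DAP5), whose product lacks the part that binds eIF4E, went the other way. It had 446, 409.5 and 365 CPM in heterozygous IP, against 629.5, 655 and 704 CPM in heterozygous Input. Wild-type IP held 370.5, 382, 387, 392 and 338 CPM, against 595, 623, 574, 542 and 749 CPM in wild-type Input. All IP libraries were below all Input libraries, and its log2 fold change was -0.71 ± 0.12 in heterozygous (SE; edgeR, adjusted p = 9.74e-05) and -0.71 ± 0.10 in wild-type animals (edgeR, adjusted p = 2.60e-06).

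Eif4h, which stimulates the helicase eIF4A, was the most abundant member in Input by CPM. It had 574, 504 and 451 CPM in heterozygous IP, against 843, 947 and 1036 CPM in heterozygous Input. In wild-type IP it had 524, 482, 485, 497 and 393 CPM, against 784, 807, 824, 839.8 and 898 CPM in wild-type Input. All IP libraries lay below all Input libraries, with log2 fold changes of -0.89 ± 0.13 in heterozygous (SE; edgeR, adjusted p = 1.38e-05) and -0.80 ± 0.10 in wild-type animals (edgeR, adjusted p = 9.75e-07).

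Eif4e, the cap-binding protein, had 166, 152 and 152 CPM in heterozygous IP, against 199, 223 and 220.2 CPM in heterozygous Input. Wild-type IP had 140.1, 161, 134, 158 and 172 CPM, against 192, 196, 206, 194 and 219 CPM in wild-type Input. With no overlap of the fractions, it fell by 0.45 on the log2 scale in heterozygous (edgeR, adjusted p = 7.41e-04) and by 0.39 in wild-type animals (edgeR, adjusted p = 1.44e-04). The helicase genes Eif4a1 and Eif4a2 and their partner Eif4b were called lower in both genotypes. Eif4a3, a related helicase that sits in the exon junction complex and not in eIF4F, was called higher in both, at 0.30 in heterozygous and 0.44 in wild-type animals.

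Of the inhibitors of eIF4E, Eif4ebp1 had 5.97, 7.17 and 7.62 CPM in heterozygous IP, against 8.61, 7.13 and 8.84 CPM in heterozygous Input. In wild-type IP it had 4.84, 4.37, 5.42, 6.64 and 7.88 CPM, against 12.4, 9.55, 10.1, 7.79 and 7.60 CPM in wild-type Input. The fractions overlapped in both genotypes. It was called lower in wild type, at -0.72 ± 0.22 (SE; edgeR, adjusted p = 0.00801), and not in heterozygous animals, at -0.26 ± 0.28 (edgeR, adjusted p = 0.478). The log2 difference of IP from Input was -1.31, -1.09 and -0.86 in wt734, wt736 and wt785, but -0.22 in wtBT13 and 0.051 in wtBT14. Eif4ebp2, known as the main 4E-binding protein of the brain, had at most 12 counts in any library and averaged 1.11 ± 0.36 CPM in heterozygous IP, 1.22 ± 0.84 CPM in wild-type IP, 1.13 ± 0.78 CPM in heterozygous Input and 1.01 ± 0.75 CPM in wild-type Input (SD, n = 3, 5, 3 and 5). The level of Eif4ebp2 was thus too low in this table to compare the fractions, and why was not tested.

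**Figure D2:**
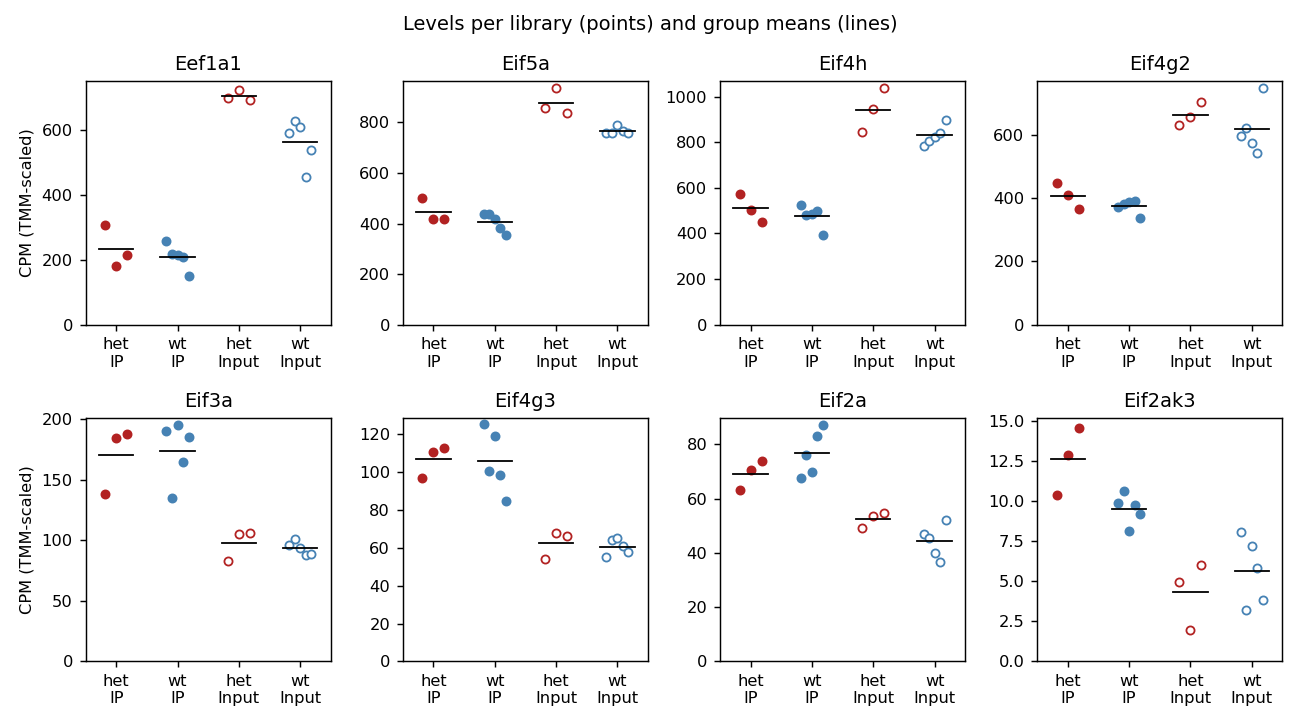
CPM in each library (points) with group means (lines) for 8 members, from left to right heterozygous IP, wild-type IP, heterozygous Input and wild-type Input; filled points are IP and open points Input. In the upper row every IP point lies below every Input point, and in the lower row every IP point lies above every Input point.

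Both eIF5A genes were lower in IP. Eif5a, whose hypusine-modified product helps ribosomes through stalling sequences, had 503, 418 and 419 CPM in heterozygous IP, against 856, 935 and 836 CPM in heterozygous Input. Wild-type IP had 438, 439.9, 416, 384 and 356 CPM, against 759, 757, 792, 766 and 759.8 CPM in wild-type Input. Its log2 fold change was -0.98 ± 0.11 in heterozygous (SE; edgeR, adjusted p = 7.66e-07) and -0.91 ± 0.088 in wild-type animals (edgeR, adjusted p = 2.33e-08), with no overlap of the fractions. The paralog Eif5a2 fell by 0.82 on the log2 scale in heterozygous (edgeR, adjusted p = 2.54e-05) and by 0.78 in wild-type animals (edgeR, adjusted p = 7.43e-07).

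Elongation gave the largest difference of any member. Eef1a1, which delivers aminoacyl-tRNA to the ribosome, had 307, 182 and 215 CPM in heterozygous IP, against 700.1, 723 and 694 CPM in heterozygous Input. In wild-type IP it had 258, 219.7, 214, 208 and 150.5 CPM, against 591, 629.5, 609, 456 and 538 CPM in wild-type Input. The highest IP library lay far below the lowest Input library, and the log2 fold change was -1.62 ± 0.14 in heterozygous (SE; edgeR, adjusted p = 3.26e-08) and -1.43 ± 0.11 in wild-type animals (edgeR, adjusted p = 1.62e-09). Of its annotated 50-base words, 40.4% also occur in transcripts of another gene, which makes its counts uncertain.

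Eef1a2, the paralog that replaces Eef1a1 in mature neurons and muscle, had 13.5, 11.0 and 14.1 CPM in heterozygous IP, against 14.1, 24.3 and 21.7 CPM in heterozygous Input. Wild-type IP held 12.0, 10.4, 16.3, 13.3 and 12.3 CPM, against 16.9, 13.5, 16.1, 9.46 and 19.6 CPM in wild-type Input. The fractions overlapped in wild type, and in heterozygous animals the highest IP value, 14.05 CPM, lay just under the lowest Input value, 14.09 CPM. The log2 fold change was -0.62 ± 0.23 in heterozygous (SE; edgeR, adjusted p = 0.0326) and -0.23 ± 0.18 in wild-type animals (edgeR, adjusted p = 0.304). The heterozygous call was lost without het786 (edgeR, log2 fold change -0.34, adjusted p = 0.342) and without hetBT13 (adjusted p = 0.103). Eef1a2 is known as abundant in mature brain, but it had 34 to 83 counts per library here, and whether the annotation or the counting set this level was not tested. None of its annotated 50-base words occur in another gene's transcripts.

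Of the exchange factor genes, Eef1g and Eef1b2 were called lower in both genotypes and Eef1d in neither. Eef1g fell by 0.82 in heterozygous and by 0.53 in wild-type animals on the log2 scale (edgeR, adjusted p = 1.59e-05 and 6.71e-05), and 44.2% of its 50-base words occur in another gene. Eef2, the translocase, had 339, 353 and 389 CPM in heterozygous IP, against 317, 347 and 368 CPM in heterozygous Input. In wild type it had 447, 331, 424, 393 and 361 CPM in IP, against 342, 342, 369.5, 294 and 330.3 CPM in Input. The fractions overlapped in both genotypes, and its log2 fold change was 0.064 ± 0.11 in heterozygous (SE; edgeR, adjusted p = 0.646) and 0.22 ± 0.082 in wild-type animals (edgeR, adjusted p = 0.0257). The wild-type call was lost when animal wt734, wt785 or wtBT13 was left out (edgeR, adjusted p = 0.115, 0.0637 and 0.123).

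Eef2k, the kinase that inhibits eEF2, had 28.4, 23.1 and 32.3 CPM in heterozygous IP, against 30.5, 24.9 and 27.3 CPM in heterozygous Input. Wild-type IP had 30.5, 32.0, 35.9, 25.9 and 24.2 CPM, against 27.7, 21.5, 23.0, 24.5 and 31.4 CPM in wild-type Input. The values overlapped, and neither genotype passed the threshold, with log2 fold changes of 0.0039 ± 0.18 in heterozygous (SE; edgeR, adjusted p = 0.987) and 0.22 ± 0.14 in wild-type animals (edgeR, adjusted p = 0.192). The wild-type difference was called without wtBT14 (log2 fold change 0.37; edgeR, adjusted p = 0.032).

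Enzymes that modify the elongation factors, and the selenocysteine factor, were higher in IP where they were called. Eef1akmt1, which methylates a lysine of eEF1A, had 117, 103 and 112 CPM in heterozygous IP, against 78.8, 75.8 and 61.9 CPM in heterozygous Input. In wild-type IP it had 101, 115, 108, 101 and 93.3 CPM, against 68.3, 70.6, 67.2, 66.0 and 56.1 CPM in wild-type Input. The fractions did not overlap, and the log2 fold change was 0.61 ± 0.11 in heterozygous (SE; edgeR, adjusted p = 7.62e-05) and 0.66 ± 0.081 in wild-type animals (edgeR, adjusted p = 6.65e-07). Eef1akmt2 and Eefsec, which brings selenocysteine tRNA to the ribosome, were called higher in both genotypes as well.

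The 9 members known as TOP mRNAs from cell culture (Eef1a1, Eef1b2, Eef1d, Eef1g, Eef2, Eif3e, Eif3f, Eif3h and Eif4b) held 6 genes called lower and 0 called higher in heterozygous animals, and 5 lower and 1 higher in wild type. Their median log2 fold change was -0.37 in heterozygous and -0.23 in wild-type animals, and that of the other 53 members was 0.064 and 0.15. The cytosolic ribosomal protein genes, the main class of TOP mRNAs, had 54 of 77 called lower and 0 higher in heterozygous animals, and 53 lower and 1 higher in wild type, with medians of -0.60 and -0.45. Their part in the values of the members was not tested.

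The calls were also set beside coding length. The median of the longest annotated coding length was 1698 bases for members called higher and 789 bases for members called lower in heterozygous animals, and 1746 and 769.5 bases in wild type. Of the 11 members with at least 2400 coding bases, 6 were called higher and 1 lower in heterozygous animals, and 9 higher and 1 lower in wild type. The 1 exception was Eif4g2. Of the 24 members with under 1000 bases, 4 were called higher and 11 lower in heterozygous animals, and 5 higher and 12 lower in wild type. These length limits were set after the values were seen, and the calls of all coding genes within them were not counted. The counts are thus not shown to be particular to the members. Over the 62 genes, Spearman's rho of the log2 fold change with coding length was 0.456 in heterozygous and 0.537 in wild-type animals, and over all 12575 coding genes tested it was 0.288 and 0.336. With the level in the Input of the other genotype rho was -0.598 and -0.571 over the members, and -0.239 and -0.238 over all coding genes. These correlations are across genes of the same libraries, and genes are not independent replicates.

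**Figure D3:**
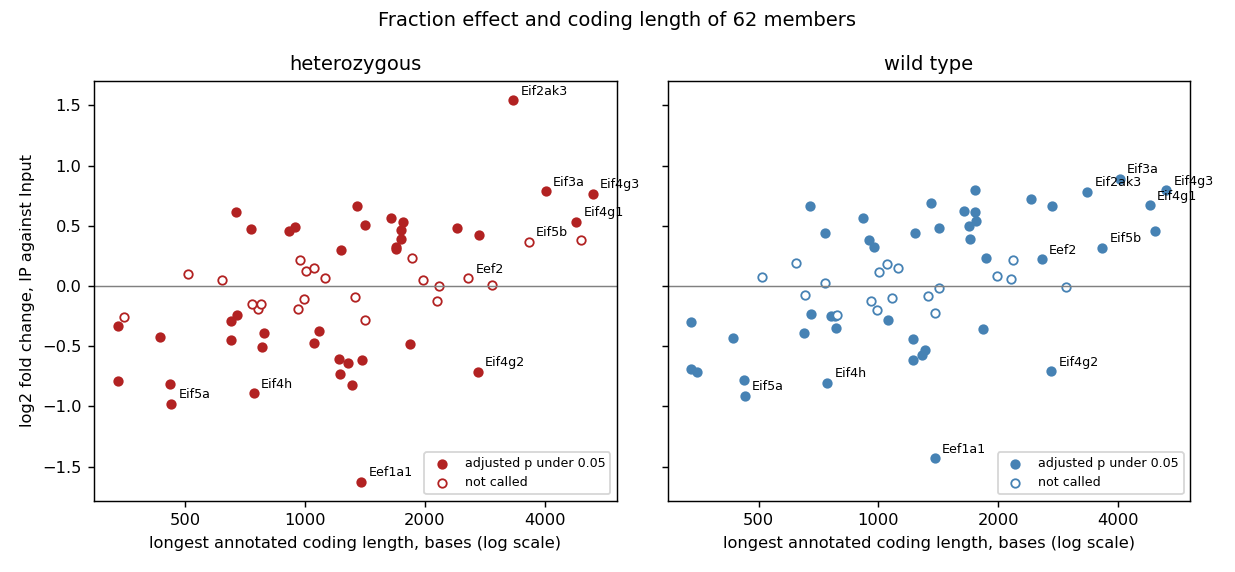
Log2 fold change of IP against Input (vertical axis) against the longest annotated coding length in bases (horizontal log axis) of the 62 members, with heterozygous animals in the left panel and wild type in the right; filled points have an adjusted p under 0.05. Eif3a, Eif4g3 and Eif4g1 lie at the upper right, and Eif4g2 is the only member of at least 2400 bases called lower in either panel.

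Other genes of the translation pathway were listed beside the members. Of 35 such genes, 14 were called higher and 4 lower in IP in heterozygous animals, and 21 higher and 4 lower in wild type, with medians of 0.28 and 0.35. The 9 nuclear genes for mitochondrial translation factors included 7 called higher and 0 lower in each genotype. Among them Gfm1, the mitochondrial elongation factor G, rose by 0.93 in heterozygous and 1.15 in wild-type animals on the log2 scale, and Mtif2, the mitochondrial initiation factor, by 1.15 and 0.92. Rptor, the mTORC1 subunit that recruits the 4E-binding proteins, rose by 1.05 and 1.20. The 4 genes called lower were the same in both genotypes: Pabpc1, which binds poly(A) and eIF4G, at -0.51 in heterozygous and -0.49 in wild-type animals, its inhibitor Paip2, the reinitiation factor gene Denr, and Ppp1r15a, whose product directs the phosphatase that restores eIF2.

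Ratios of paralogs within a library need no scaling between libraries, and they were compared between IP and Input of the same animal for 9 pairs. In 5 pairs the ratio was higher in IP after Benjamini-Hochberg adjustment over the 9 (exact sign-flip permutation over 8 animals, two-sided, smallest possible p 0.00781). The ratio of Eef1a2 to Eef1a1 was 2.21-fold higher in IP than in Input, a log2 difference of 1.15 ± 0.31 (SD, n = 8), in 8 of 8 animals (exact permutation p = 0.00781, adjusted p = 0.0176). Means were 1.01 in heterozygous and 1.23 in wild-type animals. Eef1a1 nonetheless had more counts than Eef1a2 in each library: per kilobase of annotated exon its level was 94.0 CPM in heterozygous IP, 84.2 CPM in wild-type IP, 283 CPM in heterozygous Input and 226 CPM in wild-type Input, where that of Eef1a2 was 6.17, 6.17, 9.61 and 7.26 CPM.

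Eif1b gained on Eif1 by 0.41 ± 0.13, and Eif4e3, a cap-binding relative, gained on Eif4e by 0.54 ± 0.37 on the log2 scale (SD, n = 8), each in 8 of 8 animals. Eif1b was itself called lower in IP, at -0.33 in heterozygous and -0.30 in wild-type animals, and Eif4e3 was called in neither genotype. The Y-linked Eif2s3y gained on its X-linked partner Eif2s3x by 0.60 ± 0.28 in 8 of 8 animals (SD). Each of these 3 ratios had an exact permutation p of 0.00781 and an adjusted p of 0.0176. Of the 50-base words of Eif2s3x, 34.6% occur in another gene. The ratio of Eif3j2 to Eif3j1 was 0.11 ± 0.11 higher (SD, 7 of 8 animals; exact permutation, adjusted p = 0.0422), but 91.8% of the words of Eif3j2 occur in another gene and the call was lost in 7 of the 8 fits that left out 1 animal. For Eif4a2 over Eif4a1, Eif4g3 over Eif4g1, Eif5a2 over Eif5a and Eif4e2 over Eif4e the differences of -0.16, 0.16, 0.14 and 0.20 did not pass. Between genotypes, 0 of 18 ratios passed in IP or Input, by adjusted or unadjusted p (exact permutation, 3 against 5). The smallest p this test allows is 0.0179, so a ratio alone could not have passed the adjustment over 18.

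**Figure D4:**
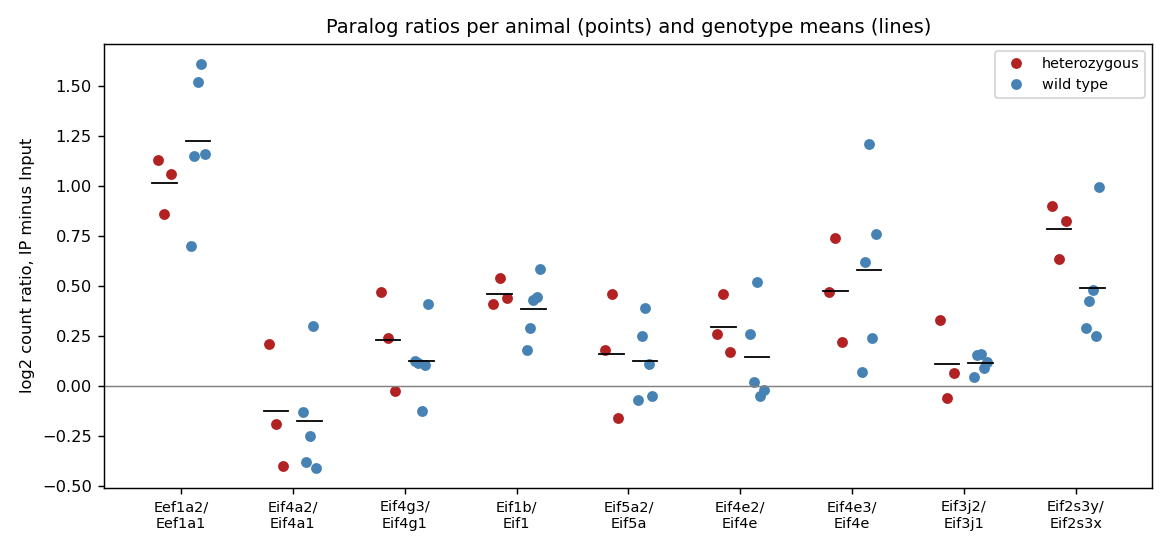
Log2 ratio of counts of 2 paralogs in IP minus that in Input of the same animal (vertical axis), for 9 pairs, with heterozygous animals (red, 3) left of wild type (blue, 5); points are animals and lines genotype means. All 8 animals lie above 0 for Eef1a2/Eef1a1, Eif1b/Eif1, Eif4e3/Eif4e and Eif2s3y/Eif2s3x.

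Per kilobase of annotated exon, the members spanned a wide range of levels in wild-type Input. The highest were Eif5a at 322 CPM per kilobase, Eef1a1 at 226, Eif1b at 192, Eif4h at 149.6 and Eif1 at 120.2. At the low end were Eif2ak4 at 1.56 and Eif2ak3 at 0.932, both eIF2 kinases. Summed over the 62 genes, the level was 7499 ± 236 CPM in heterozygous IP and 7355 ± 159 CPM in wild-type IP, and 9665 ± 334 CPM in heterozygous Input and 8827 ± 369 CPM in wild-type Input (SD, n = 3, 5, 3 and 5). As a share of counts before TMM scaling, the members took 0.809% to 0.829% in heterozygous IP and 0.868% to 0.901% in heterozygous Input. In wild type the fractions overlapped by this measure, at 0.813% to 0.83% in IP and 0.779% to 0.86% in Input.

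Between genotypes no member was called, in either fraction. In IP, 0 of 62 members had an adjusted p under 0.05, where 0% of 14755 genes did, and 0 had an unadjusted p under 0.05, where 4.09% of all genes did (edgeR; DESeq2 called 0 members and 3 genes in all, limma-voom 0 and 0). The log2 fold changes of heterozygous against wild type ran between -0.20 and 0.40, with 33 higher, 29 lower and a median of 0.0053. No member had heterozygous IP libraries all on one side of the wild-type ones, where 3.56% of all genes did. The 3 with the smallest unadjusted p in the positive direction were Eif2ak3, Eef1akmt2 and Eif1, at 0.40 ± 0.19, 0.24 ± 0.13 and 0.17 ± 0.12, and in the negative direction Eif3b, Eif2a and Eif3j2, at -0.20 ± 0.14, -0.16 ± 0.11 and -0.19 ± 0.14 (SE; edgeR, adjusted p = 0.981 for each). Within animals named by number (2 heterozygous against 3 wild type) Eif3b was -0.43 and Eif3j2 0.044. Within animals whose names begin with BT (1 against 2) they were 0.22 and -0.59. The others of these members kept their sign in both.

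In Input, 0 of 62 members were called, where 0% of 13870 genes were, and 5 (Eef1a1, Eif1, Eif5a, Eif4a1 and Eif4h, all higher in heterozygous animals) had an unadjusted p under 0.05, which is 8.06% of them, where 7.06% of all genes did. That share depended on the fit: with name form (number or BT) as a covariate 11 members (17.7%), all higher, had an unadjusted p under 0.05, where 10.9% of all genes did. With the percentage of mitochondrial RNA as a covariate it was 13 of the 62, all higher, where 11.3% of all genes did, and without het786 it was 3 (4.84%), where 3.96% did. DESeq2 and limma-voom called 0 members and 0 genes in all. The log2 fold changes ran between -0.39 and 0.40, with 48 higher and 14 lower in heterozygous Input and a median of 0.088, where the median over all genes tested was 0.0055. Without wtBT13 the members' median was 0.057, with 44 higher and 18 lower. The Input library of that animal had the lowest mitochondrial share of the Input libraries, 0.928%, and a chi-square per degree of freedom of 6.58 to 7.62 against the wild-type Input libraries named by number. In the same comparison 3 of 4 astrocyte markers were lower in heterozygous Input (median log2 fold change -0.23, 2 with an unadjusted p under 0.05), as were 3 of 4 oligodendrocyte markers (median -0.17, 0 under 0.05) and 2 of 3 microglia markers (median -0.35, 1 under 0.05), and 0 of them were called. Their part in the members' values was not tested. Eef1a1 had 700.1, 723 and 694 CPM in heterozygous Input, against 591, 629.5, 609, 456 and 538 CPM in wild-type Input. The groups did not overlap, but the difference of 0.33 ± 0.10 (SE) did not pass (edgeR, adjusted p = 0.634). Eif1 and Eif5a likewise did not overlap, with log2 fold changes of 0.28 ± 0.10 and 0.20 ± 0.076 (edgeR, adjusted p = 0.67 for both). Together with Eif3g and Eif3h, 5 members had all heterozygous Input libraries above all wild-type ones and 0 the reverse, where 5.28% of all genes tested had no overlap in either direction.

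In the negative direction the 3 members with the smallest unadjusted p in Input were Eif2s1 at -0.17 ± 0.12, Eif2ak3 at -0.39 ± 0.36 and Eif4ebp1 at -0.21 ± 0.22 (SE; edgeR, adjusted p = 0.774, 0.829 and 0.856). Within animals named by number Eif2ak3 was -0.82 and Eif4ebp1 -0.42, and within animals whose names begin with BT they were 0.34 and 0.19. Eif2s1 was negative in both. Among the named members with no call in either fraction, Eef1a2 had 0.0012 ± 0.19 in IP and 0.40 ± 0.22 in Input, Eef2 -0.12 ± 0.11 and 0.041 ± 0.090, Eif4e 0.029 ± 0.10 and 0.10 ± 0.088, and Eef2k -0.092 ± 0.16 and 0.13 ± 0.15 (log2 fold change, SE). These misses do not show that the genotypes have equal levels. Of 77 cytosolic ribosomal protein genes, 76 had a positive log2 fold change in Input with a median of 0.21, 7 had an unadjusted p under 0.05 and 0 were called; their part in the members' values was not tested. Within animals named by number only, the members' median in Input was 0.077 (2 heterozygous against 3 wild type), and within animals whose names begin with BT it was 0.10 (1 against 2).

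**Figure D5:**
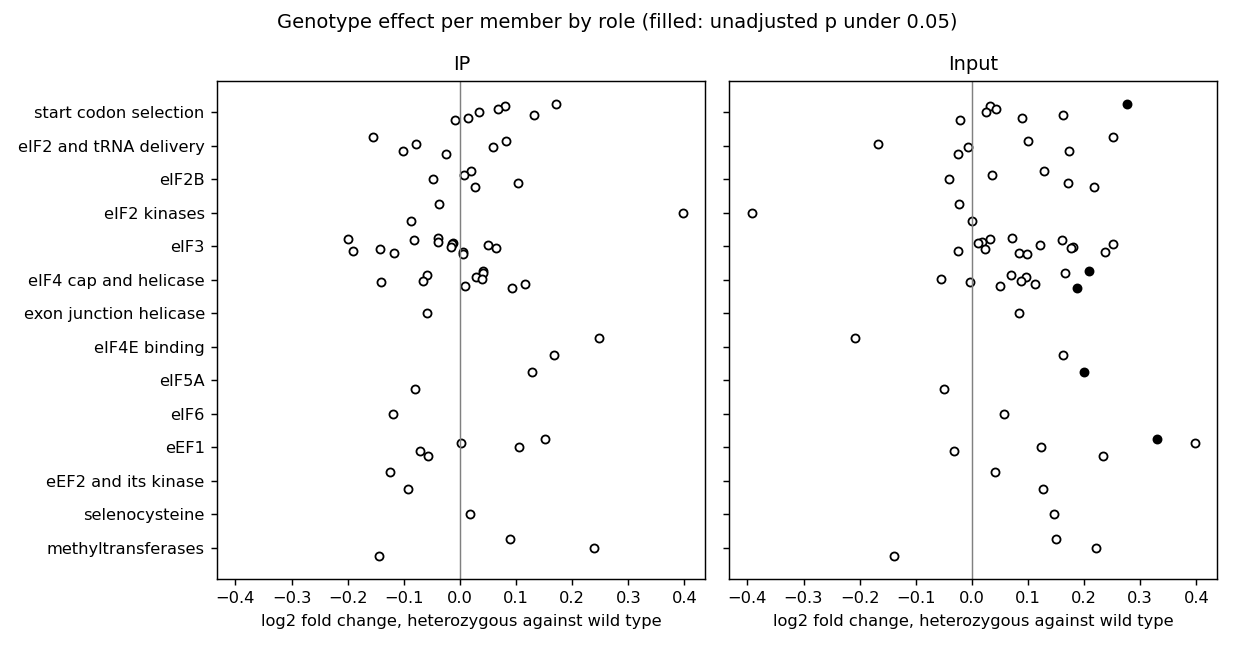
Log2 fold change of heterozygous against wild type (horizontal axis) for each of the 62 members by role, in IP (left) and Input (right); filled points have an unadjusted p under 0.05 and no point has an adjusted p under 0.05. The points of IP lie on both sides of 0, and in Input 48 of 62 lie to its right.

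The difference between the genotype effects in IP and in Input was tested directly as an interaction. Again 0 of 62 members and 0% of 14797 genes were called, and 1 member, Eif2a, had an unadjusted p under 0.05, where 3.07% of all genes did (edgeR; DESeq2 and limma-voom called 0 members and 0 genes). The interaction of Eif2a was -0.40 ± 0.16 on the log2 scale (SE; edgeR, adjusted p = 1.0), since its IP to Input difference was 0.39 in heterozygous and 0.80 in wild-type animals. Interactions were negative for 49 members and positive for 13, with a median of -0.071 over the members and -0.012 over all genes. Without het729 the members' median was -0.13, and without het786 it was -0.049 with 20 positive and 42 negative. Without het729 or without wt736, 5 members (8.06%) had an unadjusted p under 0.05 (edgeR), where 4.76% and 3.54% of all genes did. All 14 eIF3 genes and all 9 TOP members had negative values, none called, with medians of -0.15 and -0.16. Eif3e, Eif3f and Eif3h belong to both lists. Negative values were also found for all 5 eIF2B genes, all 5 eEF1 genes and 69 of 77 cytosolic ribosomal protein genes. The smallest unadjusted p after Eif2a in the negative direction belonged to Eif3f and Eif3c, at -0.27 ± 0.13 and -0.24 ± 0.12, and in the positive direction to Eif2ak3, Eif4ebp1 and Eif2s1, at 0.76 ± 0.41, 0.46 ± 0.36 and 0.11 ± 0.14 (SE; edgeR, adjusted p = 1.0 for each).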

How the data were processed

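RNA was measured by Smart-seq2 sequencing in IP and Input libraries of mouse cortex. The deposited values are raw read counts per Ensembl gene; the submitters' processing notes name HTSeq and mm10, and the aligner and the annotation are not given in the sources used here. Symbols, gene types and exon and coding lengths were joined by gene ID from GENCODE M21, where 24873 of 25317 IDs matched and 444 had no symbol.

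Counts were tested with edgeR 4.0.16 (quasi-likelihood, robust, filterByExpr with a count minimum of 10, TMM) in R 4.3.3, with Benjamini-Hochberg adjustment over all genes tested and a threshold of 0.05. IP against Input and the interaction came from 1 fit of 16 libraries with the animal as a block, since both fractions of an animal come from 1 lysate, per the labels' protocol. As a check, deviations of the paired libraries from their group means correlated with r between 0.0527 and 0.214 over 14928 genes. The genotypes were compared within each fraction, 3 against 5. SE are from the same F test. Alternatives used DESeq2 1.42.0, limma 3.58.1 and others given in the closing section. The fits were tested on simulated counts. All 62 members passed the count filter of each fit with a count minimum of 10. With a count minimum of 30, 61 were tested between IP and Input and in the interaction, and 60 between genotypes in Input. Libraries of a group differed by more than sampling noise (chi-square per degree of freedom 2.13 to 12.4), so none was merged in these fits.

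Levels are CPM after TMM over 20 libraries; p-values across animals measure the spread between these animals. Paralog ratios used a pseudocount of 0.5 and exact permutation tests, and 1 of 10 pairs was dropped because Eif4ebp2 is no member. Named genes are a fixed set (Eef1a1, Eef1a2, Eef2, Eif4e, Eif4g1, Eif2s1, Eif4ebp2, Eef2k), the 6 called members of largest change per direction with the same sign in every animal and a mean of at least 5 CPM for IP against Input, and the 3 of smallest unadjusted p per direction elsewhere; others are named to fill a role. The members and lists were chosen with earlier results of these data known. The form of the animals' names (number or BT) was treated as a possible batch, although no label says what it stands for. Shared 50-base words were sought in the annotated transcripts.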

Additional observations from a re-analysis of the deposited data

Results flagged for a closer look

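Of 68 groups of 5 wild-type libraries examined over 34 named members, 4 held 1 library far from the others (Dixon's ratio above 0.71), where chance flags about 1 in 20. In wild-type Input, Eif1 had 203 CPM in animal wtBT13, while the other 4 libraries had 260 to 269 CPM. The same library had 388 CPM of Eif4a2, while the others had 515 to 540 CPM. Eif5a had 792 CPM in the Input of animal wt785, with 757 to 766 CPM in the others. Eif5a2 had 166 CPM in the Input of animal wtBT14, with 107 to 119 CPM in the others.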

How the results depend on the processing

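Of 276 recomputed counts and medians, 267 stayed within 1.5 times the reported count or within 1 SD of the members' median between animals or libraries, and 9 did not. Leaving out 1 animal at a time, members called higher in IP in heterozygous animals numbered 12 to 20, and the median over members ran between -0.0863 and 0.0597; the lowest count was without het786. The members' median for heterozygous against wild type ran between -0.0137 and 0.0448 in IP and between 0.0567 and 0.109 in Input. In wild-type IP against Input it ran between 0.0358 and 0.0728, and for the interaction between -0.129 and -0.0488. The count of all genes called was 3 in IP with DESeq2 and, with no low-count filter, 28 in Input and 11 for the interaction, in place of 0; the members called stayed at 0 in each of these. Without the replicate block, 18 members were called higher and 19 lower in heterozygous animals, and 23 and 19 in wild type; the block changed no call of a named member.

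Of 1171 recomputed values of named members and paralog ratios, 1145 kept their sign, of which 14 lost and 1 gained a call, and 26 changed sign. Eef2k in heterozygous animals, near 0 as reported, was -0.026 with DESeq2, -0.0011 with limma-voom, -0.027 with DESeq2 size factors, -0.015 with a count minimum of 30, -0.0096 with name form by fraction in the fit with the replicate block, and -0.11 to 0.060 without 1 animal. The other changes of sign were of values not called. For heterozygous against wild type in IP, leaving out 1 animal gave -0.089 to 0.30 for Eef1a1, -0.071 to 0.099 for Eef1a2, -0.017 to 0.074 for Eif4e, -0.29 to 0.014 for Eif4g1 and -0.21 to 0.025 for Eef2k, and a count minimum of 30 gave -0.00016 for Eef1a2. In Input it gave -0.017 to 0.092 for Eef2 and -0.087 to 0.080 for Eif4g1, and with the further heterozygous Input libraries, summed per animal, Eif2ak3 was 0.047 and Eef2k -0.0070. The interaction of Eif2s1 ran between -0.011 and 0.22. The cause of these changes was not tested. Eif2ak3, Eef2kmt, Eif4ebp1, Eif2ak4 and Eef1a2 had the fewest counts of the 62 members in their lowest library, 6 to 34, and the largest SE of the heterozygous log2 fold change.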
